A study of Mus musculus with 3 samples.

Results

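Regions enriched for 5-hydroxymethylcytosine (5hmC) in introns beyond the first were examined in mouse cerebellum. The peaks of 3 replicates on chromosomes 1 to 19 were merged where they overlapped by at least 1 bp, and a merged region was kept when its midpoint lay in intron 2 or later of the Ensembl canonical transcript of a protein-coding gene, outside all exons, more than 1 kb from every protein-coding transcription start and in no first intron of another gene. This gave 4491 later-intron regions of 13285 merged regions. In the hMeDIP procedure, an antibody against 5hmC pulled down sonicated DNA fragments, which were then sequenced on nanopore flow cells, and each CpG of a read was called as 5hmC, 5-methylcytosine (5mC) or unmodified cytosine (C). The DNA was of cerebellum of female mice aged 8 weeks of the strain C57Bl6Cr. Replicate 1 used a whole serum antibody and replicates 2 and 3 an IgG-purified antibody, and since sheared DNA was sonicated in triplicate and the library names share a cerebellum number, the spread between replicates is that of reactions and not of mice. The lists held 490, 8506 and 5146 peaks on these chromosomes in replicates 1, 2 and 3, and the merged regions held 68673, 101734 and 73834 CpG base-calls. Antibody and replicate cannot be told apart, since the whole serum was used in 1 reaction only. Because the DNA was of whole tissue, more cells with the mark and more of the mark per cell cannot be told apart either.

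TET enzymes form 5hmC by oxidising 5mC, and the mark is abundant in neurons, where it is known from the bodies of transcribed genes. Introns are numbered from the transcription start. The first intron often holds regulatory sequence close to the promoter, while later introns make up most of the length of many long neuronal genes. Most neurons of the cerebellum are granule cells, with far fewer Purkinje cells and interneurons.

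Sequences of 300 bases around the summits of 8 regions are given from the GRCm39 reference, forward strand, with CpG in capitals. None of the 8 held an exon base. The first 4 show regions with a peak in all 3 replicates, in intron 3 of Camk1d, intron 2 of Cstpp1, intron 8 of Sel1l3 and intron 12 of Shank3. They held 19, 7, 6 and 11 CpG, and that of Cstpp1 contained a run of 40 bases that occurred more than once.
Camk1d (chr2:5383851-5384150): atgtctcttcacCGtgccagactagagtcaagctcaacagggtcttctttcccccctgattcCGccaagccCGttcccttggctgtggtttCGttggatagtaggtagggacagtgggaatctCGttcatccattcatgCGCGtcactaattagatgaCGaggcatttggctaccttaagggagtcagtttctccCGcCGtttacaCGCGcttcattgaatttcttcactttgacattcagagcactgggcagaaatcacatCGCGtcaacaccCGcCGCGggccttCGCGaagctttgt
Cstpp1 (chr2:91223866-91224165): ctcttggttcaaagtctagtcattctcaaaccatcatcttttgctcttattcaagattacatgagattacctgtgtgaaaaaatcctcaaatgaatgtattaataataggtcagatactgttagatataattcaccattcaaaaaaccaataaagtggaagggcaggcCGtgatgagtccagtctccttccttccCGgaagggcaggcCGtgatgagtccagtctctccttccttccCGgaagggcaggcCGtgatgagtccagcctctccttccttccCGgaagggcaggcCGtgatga
Sel1l3 (chr5:53328262-53328561): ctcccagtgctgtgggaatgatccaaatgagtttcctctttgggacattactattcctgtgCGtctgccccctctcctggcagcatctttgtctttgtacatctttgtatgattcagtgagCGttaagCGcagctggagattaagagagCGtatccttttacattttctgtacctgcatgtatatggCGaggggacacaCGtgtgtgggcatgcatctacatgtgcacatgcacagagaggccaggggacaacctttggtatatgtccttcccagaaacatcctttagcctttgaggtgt
Shank3 (chr15:89413043-89413342): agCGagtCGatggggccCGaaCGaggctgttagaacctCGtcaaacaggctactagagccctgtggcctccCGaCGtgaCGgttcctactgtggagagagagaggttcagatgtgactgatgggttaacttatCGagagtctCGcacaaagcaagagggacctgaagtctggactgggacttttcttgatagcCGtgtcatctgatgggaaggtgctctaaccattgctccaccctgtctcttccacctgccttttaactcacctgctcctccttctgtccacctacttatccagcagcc
The next 2 were among the regions with the highest share of 5hmC calls, in intron 5 of Nlgn1 and intron 2 of Macroh2a1, with 10 and 7 CpG.
Nlgn1 (chr3:25712203-25712502): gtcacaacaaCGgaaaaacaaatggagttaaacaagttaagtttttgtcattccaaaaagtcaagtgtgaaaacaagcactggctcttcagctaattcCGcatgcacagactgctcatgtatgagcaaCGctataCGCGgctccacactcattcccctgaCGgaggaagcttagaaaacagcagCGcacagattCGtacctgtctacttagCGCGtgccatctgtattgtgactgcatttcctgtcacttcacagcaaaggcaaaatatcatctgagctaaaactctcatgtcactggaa
Macroh2a1 (chr13:56258991-56259290): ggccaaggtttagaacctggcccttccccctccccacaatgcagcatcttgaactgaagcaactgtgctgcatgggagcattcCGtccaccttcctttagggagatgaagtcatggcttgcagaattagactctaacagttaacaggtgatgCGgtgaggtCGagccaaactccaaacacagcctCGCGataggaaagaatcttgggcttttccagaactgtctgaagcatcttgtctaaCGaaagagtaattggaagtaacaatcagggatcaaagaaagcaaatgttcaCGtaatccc
The last 2 show the region with the highest mean fold among those in all 3 replicates, in Zfhx3, and that with the lowest share of 5hmC among those with at least 30 calls, in Chl1. The sequence in intron 7 of Zfhx3 had 41 CpG and a GC content of 87.0%, and that in intron 4 of Chl1 had 5 CpG and a GC content of 33.3%. Their longest runs that occurred more than once were 43 and 53 bases, against 7 to 9 bases in Camk1d, Sel1l3, Shank3, Nlgn1 and Macroh2a1.
Zfhx3 (chr8:109665874-109666173): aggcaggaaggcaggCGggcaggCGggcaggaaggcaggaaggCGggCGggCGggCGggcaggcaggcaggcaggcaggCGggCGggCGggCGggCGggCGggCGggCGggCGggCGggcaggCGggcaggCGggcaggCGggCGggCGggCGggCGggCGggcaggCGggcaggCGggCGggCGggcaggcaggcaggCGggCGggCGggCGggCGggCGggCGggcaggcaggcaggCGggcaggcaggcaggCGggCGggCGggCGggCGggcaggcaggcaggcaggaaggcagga
Chl1 (chr6:103625999-103626298): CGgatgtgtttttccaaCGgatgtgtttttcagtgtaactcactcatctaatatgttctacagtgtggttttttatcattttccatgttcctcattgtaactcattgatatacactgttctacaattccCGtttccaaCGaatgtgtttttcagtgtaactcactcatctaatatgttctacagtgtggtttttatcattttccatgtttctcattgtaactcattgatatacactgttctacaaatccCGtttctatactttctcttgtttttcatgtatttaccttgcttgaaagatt

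Later introns held 34.3% of all replicate 1 peaks, 33.5% for replicate 2 and 33.4% for replicate 3. Their mean was 33.7% ± 0.489 (SD, n = 3). The 3 shares lay within about a percentage point, although the number of peaks differed widely between replicates. Of the merged regions 33.8% were in later introns, against 23.8% of 4794332 windows of 500 bp in the genome, 1.42 times as many (one-sided exact binomial test, p = 5.60e-150, adjusted over 4 tests 2.24e-149). The test treats regions as independent. First introns held 22.5% of regions and 8.05% of windows, a ratio of 2.79, and coding exons 7.95% and 1.55%, a ratio of 5.13. Outside genes the ratio was 0.249. Later introns were therefore the most common place of a region, with a smaller excess over the windows than first introns or coding exons.

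Sharing between replicates was low. A peak of replicate 1 was present in 174 later-intron regions, of replicate 2 in 2849 and of replicate 3 in 1723. Of the 4491 regions 4249 had a peak in 1 replicate, 229 in 2 and 13 in 3, so that 5.39% were found more than once, against 4.92% in first introns and 11.7% in coding exons. The median fold enrichment at the summit, a ratio over untreated DNA, was 4.72 for replicate 1, 3.81 for replicate 2 and 3.86 for replicate 3. In each list many peaks shared a single value, and 19.6% of later-intron peaks in replicate 1 had a fold of 4.72, 30.3% in replicate 2 a fold of 3.83 and 32.2% in replicate 3 a fold of 3.87. The regions were 295 to 3328 bp wide with a median of 304 bp.

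The regions were richer in CpG than eligible later-intron sequence as a whole. The median was 8 CpG in 500 bp around the midpoint with a GC content of 48.6%, against 4 CpG and 42.4% in the eligible windows, those whose midpoint met the same rule. Windows without any CpG made up 0.334% of those around the regions and 5.99% of the eligible ones. A run of 10 CA dinucleotides, on either strand, was as frequent in both, 5.03% and 5.14%. A run of 20 bases that occurred more than once within the 500 bp was found in 11.8% of regions and in 14.97% of the 57012 eligible windows read for it. Although the midpoint lay outside exons by rule, 733 regions (16.3%) reached into an exon and 620 of these into coding sequence.

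Along the gene, later-intron regions were placed much as the introns themselves. Of the 4444 regions with a single host gene, the median lay at 59.7% of the distance from transcription start to gene end, against 58.8% for eligible windows. Beyond 66.67% of the gene, its final part, lay 49.4% of the later-intron peaks of replicate 1, 40.0% of those of replicate 2 and 41.6% of those of replicate 3. Replicate 1, with 166 such peaks, stood above the other replicates. Merged regions in the final part were 40.8% of the total and windows 39.8%, a ratio of 1.02 that was not significant (two-sided exact binomial test, p = 0.204, adjusted 0.271). By the same exact test the ratio was 1.11 with a fold enrichment of at least 4 (p = 0.0101) and 1.06 without replicate 2 (p = 0.0342), but 0.928 against windows with at least 10 CpG (p = 2.02e-05) and 0.948 when position was measured along the later introns alone (p = 0.0141).

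**Figure D1:**
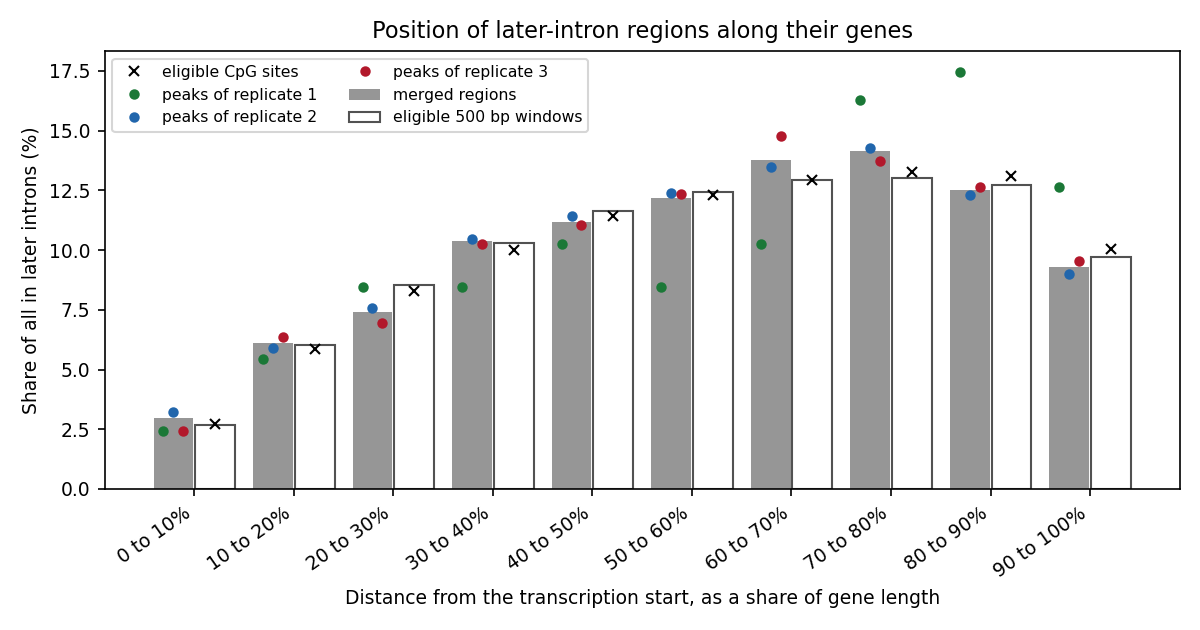
Share of later-intron regions (grey bars), eligible 500 bp windows (white bars), eligible CpG sites (crosses) and later-intron peaks of each replicate (points) in 10 equal bins of the gene from the transcription start, in percent of each. Regions and windows followed a like course, with 2.97% and 2.70% in the first bin, 14.2% and 13.02% in the highest and 9.29% and 9.72% in the last.

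By intron number the regions departed more from the windows. The second intron held 24.1% of the later-intron peaks of replicate 1, 28.1% of those of replicate 2 and 29.4% of those of replicate 3. All 3 shares were above the 20.6% of windows and of CpG sites. Among merged regions 28.6% were in the second intron, 16.04% in the third, against 13.9% of windows, and 5.99% in intron 21 or later, against 8.66%. The density fell from 10.9 regions per Mb in the second intron to 9.05 in the third, 6.81 in introns 6 to 10 and 5.42 from intron 21 on. Per 1000 CpG the density was 1.31 in the second intron and 0.655 from intron 21 on. In replicate 1 the third intron held 10.8% of 166 peaks, below the windows, and intron 21 or later 9.04%, above them. The excess in the second intron was present in genes of 20 to 500 kb, with 29.6% to 30.7% of regions against 18.9% to 21.7% of windows. It was absent from genes under 20 kb, with 26.2% against 29.7%, and from those of 500 kb or more, with 16.7% against 18.2%. These differences were not tested.

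By gene length, regions were denser than the mean in genes of 100 to 500 kb and sparser in longer ones. Genes of 100 kb or more held 64.5%, 64.9% and 66.4% of the later-intron peaks of replicates 1, 2 and 3, all close to the 64.4% of windows. The share of merged regions was 65.5%, a ratio of 1.02 (two-sided exact binomial test, p = 0.159, adjusted 0.271). Within these genes, those of 100 to 200 kb had 9.93 regions per Mb and those of 200 to 500 kb 9.16, while genes of 500 kb or more had 4.16. Shorter genes lay between, with 8.40 under 20 kb, 6.69 from 20 to 50 kb and 8.15 from 50 to 100 kb. The longest genes held 7.83%, 9.93% and 8.94% of peaks in replicates 1, 2 and 3, all below the 18.3% of windows and the 14.4% of CpG sites. By the same exact test the ratio with a threshold of 200 kb was 0.908 (p = 2.60e-08), and against CpG sites in place of windows the ratio at 100 kb was 1.07 (p = 1.60e-09).

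Per Mb of eligible sequence, genes of 100 kb or more had 1.11 times the density of genes under 50 kb, and the ratio by replicate was 1.21, 1.10 and 1.13 (mean 1.15 ± 0.0544, SD, n = 3). Counted per 1000 CpG the ratio was 1.31. Sequence of very long genes was poor in CpG, with 3.29 CpG per window in genes of 500 kb or more and 5.31 in genes under 20 kb, and also per 1000 CpG the longest genes had the lowest density, 0.636 regions against 1.13 in genes of 200 to 500 kb.

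**Figure D2:**
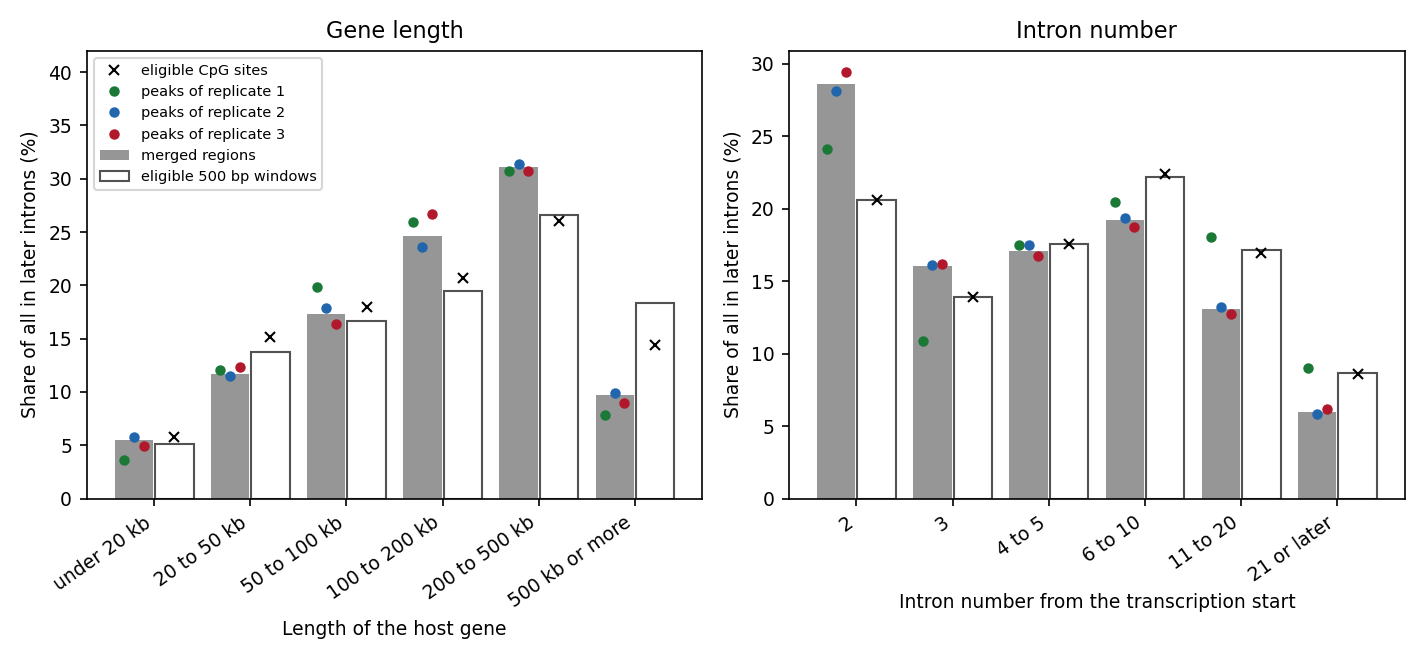
Share of later-intron regions (grey bars), eligible windows (white bars), eligible CpG sites (crosses) and peaks of each replicate (points) by length of the host gene (left) and by intron number (right), in percent of each. Genes of 500 kb or more held 9.70% of regions and 18.3% of windows, and the second intron 28.6% and 20.6%.

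Distance to the nearest exon of the host transcript was examined next. Within 1 kb of an exon lay 33.7%, 28.2% and 27.3% of the later-intron peaks of replicates 1, 2 and 3, and 27.9% of merged regions against 27.8% of windows (two-sided exact binomial test, p = 0.894, adjusted 0.894). The density was 12.1 regions per Mb under 250 bp from the exon, 5.41 from 500 bp to 1 kb, 9.27 from 5 to 10 kb and 5.69 at 50 kb or more. Sequence under 250 bp from an exon was also richer in CpG, with 6.49 per window, and the density per 1000 CpG was 1.20 there, 0.627 from 500 bp to 1 kb and 1.14 from 5 to 10 kb. By the exact test the ratio with a threshold of 500 bp was 1.21 (p = 1.64e-09), and against windows with at least 10 CpG the ratio within 1 kb was 0.635 (p = 8.55e-108).

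Base-calls within the peaks of each replicate gave the modification state of the regions. In replicate 1, 26.9% of 2805 calls were 5hmC (exact 95% interval 25.3% to 28.6%), in replicate 2, 32.8% of 25123 (32.2% to 33.4%), and in replicate 3, 28.9% of 17148 (28.2% to 29.6%). The intervals cover counting error only, since calls along a read share a molecule. The mean was 29.5% ± 2.98 (SD, n = 3) for 5hmC, 43.6% ± 2.08 for 5mC and 26.9% ± 2.43 for C. Of the CpG sites behind these values 44.6%, 64.7% and 61.5% had 1 call. Over all regions, the mean share of 5hmC was 24.4% ± 4.25 at CpG sites with at least 3 calls, and 15.7% ± 2.75 with at least 5. Per region, 4239 of 4491 (94.4%) had at least 1 call and 3550 of these (83.7%) at least 1 5hmC call. Of the others 43 held no CpG and 209 held CpG but no call. Among the 1925 regions with 10 or more calls the median share of 5hmC was 33.3%, with quartiles of 22.2% and 45.5%, and 51 had none.

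A small number of regions carried many of the calls. The 4 later-intron regions with a CpG site of at least 20 calls, in Zfhx3, Trrap, Rngtt (named after its values were seen) and Chl1, held 10.9% of the calls and all 4 had a repeated run of at least 20 bases. Their calls numbered 5180, 680, 653 and 86, with 14.7%, 15.9%, 8.73% and 4.65% of 5hmC. Without them 5hmC was 30.3%, 33.9% and 33.3% in replicates 1, 2 and 3, a mean of 32.5% ± 1.93. Regions with a repeated run had 22.5% ± 4.43 of 5hmC and 55.2% ± 6.05 of 5mC with these 4, and 33.5% ± 1.83 and 43.2% ± 2.18 without them (n = 3), against 32.4% ± 1.94 and 38.4% ± 3.56 in regions without such a run. All shares along the gene are therefore given without these regions.

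First introns had a higher share of 5hmC in every replicate, with 343 of 980 calls in replicate 1 and shares of 38.6% and 36.9% in replicates 2 and 3 (mean 36.8% ± 1.80). Within the same library, later minus first introns came to -8.08, -5.83 and -8.07 percentage points, a mean difference of -7.33 ± 1.30 (SD, n = 3). The exact sign-flip permutation test gave p = 0.25, the smallest value that 3 differences allow (adjusted over 3 comparisons 0.25). Without regions with a CpG site of at least 20 calls the differences were -4.68, -4.67 and -3.60, a mean of -4.32 ± 0.621. Also without regions of many calls, later-intron regions without any exon base had 33.3% ± 2.61 of 5hmC, and those that reached into an exon 30.2% ± 0.561. At CpG sites outside the peaks of the replicate itself, over all regions with those of many calls kept, the differences were -2.95, -7.29 and -1.12. With those of many calls kept, the mean difference was -11.9 ± 0.551 at CpG sites with at least 3 calls. With at least 5 calls it was -18.5 ± 8.37. Regions of many calls weigh on the later-intron side only, since the mean of first introns was 36.8% with and without them. Their part in these larger differences was not tested.

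Coding exons had 27.1% ± 1.12 of 5hmC, and later introns exceeded them by 0.864, 5.76 and 0.569 percentage points (exact permutation p = 0.25), or by 4.27, 6.91 and 5.03 without the regions of many calls. Outside genes the shares of replicates 1, 2 and 3 were 4.32%, 24.3% and 23.7%, and later introns exceeded these by 22.6, 8.46 and 5.20 points (exact permutation p = 0.25). Without the regions of many calls the share of replicate 1 outside genes was 12.3%, and the excess was 18.02, 6.81 and 7.00 points. Later-intron regions thus lay between first introns and coding exons in each replicate.

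**Figure D3:**
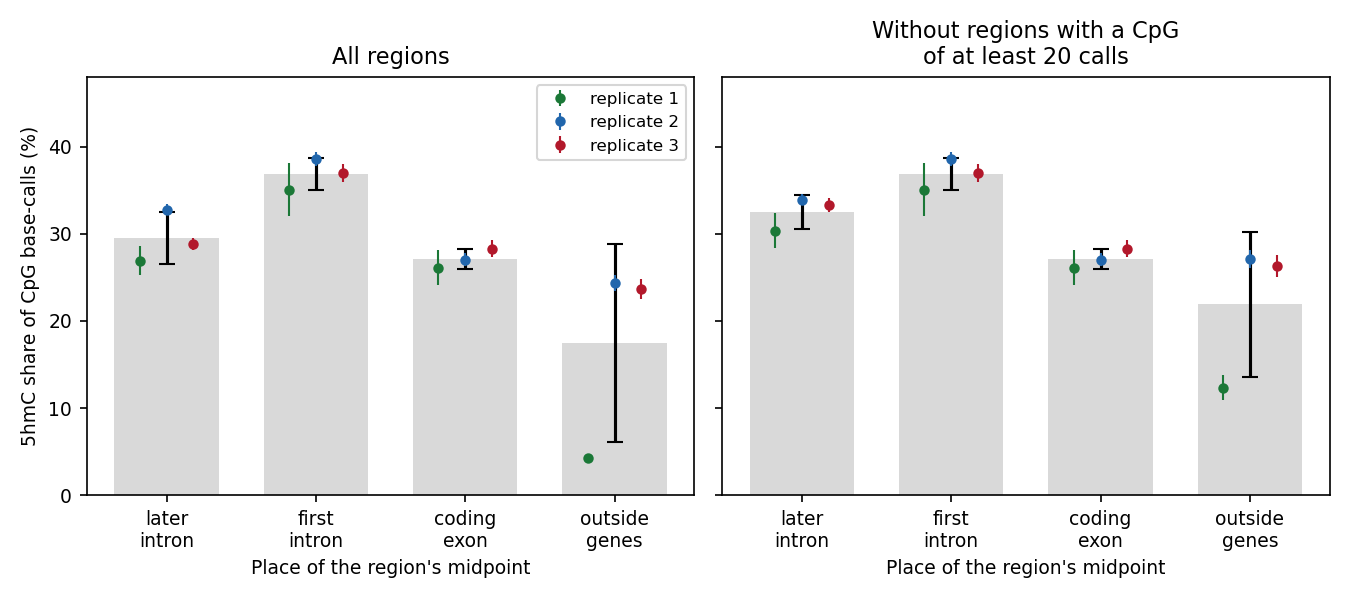
Share of 5hmC among CpG base-calls in peaks (percent), by place of the region, with all regions (left) and without regions that had a CpG of at least 20 calls (right). Bars are means over 3 replicates with the SD, points are replicates with exact 95% intervals. In both panels the points of later introns lay below those of first introns of the same replicate.

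Along the gene the 5hmC shares were compared without a test. Without the regions of many calls, 5hmC was 34.7% ± 0.887 in the first of 3 equal parts of the gene, 32.4% ± 3.20 in the middle and 31.8% ± 1.96 in the final part (n = 3). In the final part the values were 29.5%, 33.1% and 32.6%, each below the same replicate in the first part, at 35.6%, 34.6% and 33.8%. In the second intron 5hmC was 30.4%, 34.6% and 35.6% in replicates 1, 2 and 3, and in introns 6 to 10 it was 29.2%, 32.5% and 31.3%, lower within each replicate. From intron 21 on it was 41.1%, 33.05% and 33.5%, above the second intron in replicate 1 and below it in the other replicates, so that there was no steady course with intron number. By gene length the mean was lowest under 20 kb, at 27.8% ± 4.01, and 34.4% ± 0.648 from 100 to 200 kb. Introns under 1 kb had 28.0%, 28.5% and 27.8% in replicates 1, 2 and 3, and introns of 20 to 50 kb 33.5%, 35.3% and 37.3%. These were the lengths with the lowest and the highest mean. Introns of 1 to 5 kb had 25.9%, 32.1% and 30.4%, and those of 100 kb or more 30.2%, 36.0% and 35.9%, so that there was no steady course with intron length. Genes of 500 kb or more, where regions were few, had 31.4%, 34.2% and 32.8% of 5hmC, similar to the other genes.

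The 13 regions with a peak in every replicate included 10 with the highest mean fold enrichment, of which 5 reached into an exon. The strongest lay in intron 7 of Zfhx3, which encodes a zinc finger homeobox transcription factor, at chr8:109665751-109666259. Its fold was 4.01, 7.55 and 18.2 in replicates 1, 2 and 3, with mean 9.92 ± 7.38 (SD, n = 3). The replicates differed more here than in any other of the 10, and its printed sequence is a GC-rich repeat. Of 5180 calls 14.7% were 5hmC and 65.6% 5mC, and by replicate 5hmC was 19.6%, 15.04% and 13.03%.

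Camk1d, a calmodulin-dependent protein kinase gene, had a region in intron 3 (chr2:5383839-5384259), 17110 bp from the nearest exon, with folds of 8.50, 3.83 and 4.84 in replicates 1, 2 and 3. Replicate 1 was the highest there. Its 131 calls held 20.6% of 5hmC (exact 95% interval 14.0% to 28.6%), with 0 of 24 in replicate 2 and 17 of 46 in replicate 3, so that the share differed widely between replicates. In intron 2 of Cstpp1 (chr2:91223800-91224358), a gene for a centriolar satellite protein, the fold was 4.72, 3.83 and 4.84 and 16 of 62 calls were 5hmC. Shank3, a scaffold protein of the postsynaptic density, had folds of 3.74, 4.75 and 4.55 in intron 12 (chr15:89412588-89413505), and 5hmC made up 12 of 25 calls, 30.6% of 36 and 0 of 6. The region in intron 8 of Sel1l3 (chr5:53328062-53329064) had folds of 5.67, 4.79 and 2.90 and 34.0% of 5hmC in 53 calls. By replicate 5hmC made up 38.9% of 18 calls, 50.0% of 22 and 0 of 13.

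The other 5 reached into exons. In Egln2, an oxygen-dependent prolyl hydroxylase gene of 8.17 kb, the region was 1536 bp wide with 681 exon bases and 5hmC was 33.3%, 29.2% and 21.1% in the 3 replicates. Mmp24, a membrane-bound metalloproteinase, had the most even folds, 4.72, 4.79 and 4.84, and 22 of 58 calls were 5hmC. Git2, a GTPase-activating protein of Arf, had 33.6% of 5hmC in 125 calls, and Ctif, a factor of cap-dependent translation, 31.3% in 83. Tmem151b, a transmembrane protein, stood apart with 10.9% of 5hmC in 128 calls (exact 95% interval 6.11% to 17.7%), 0 of 42 in replicate 1, 14 of 86 in replicate 2 and no call in replicate 3. The remaining 3 regions, outside the rule for named regions, lay in Wdfy3, Prkcb and Tiam1.

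**Figure D4:**
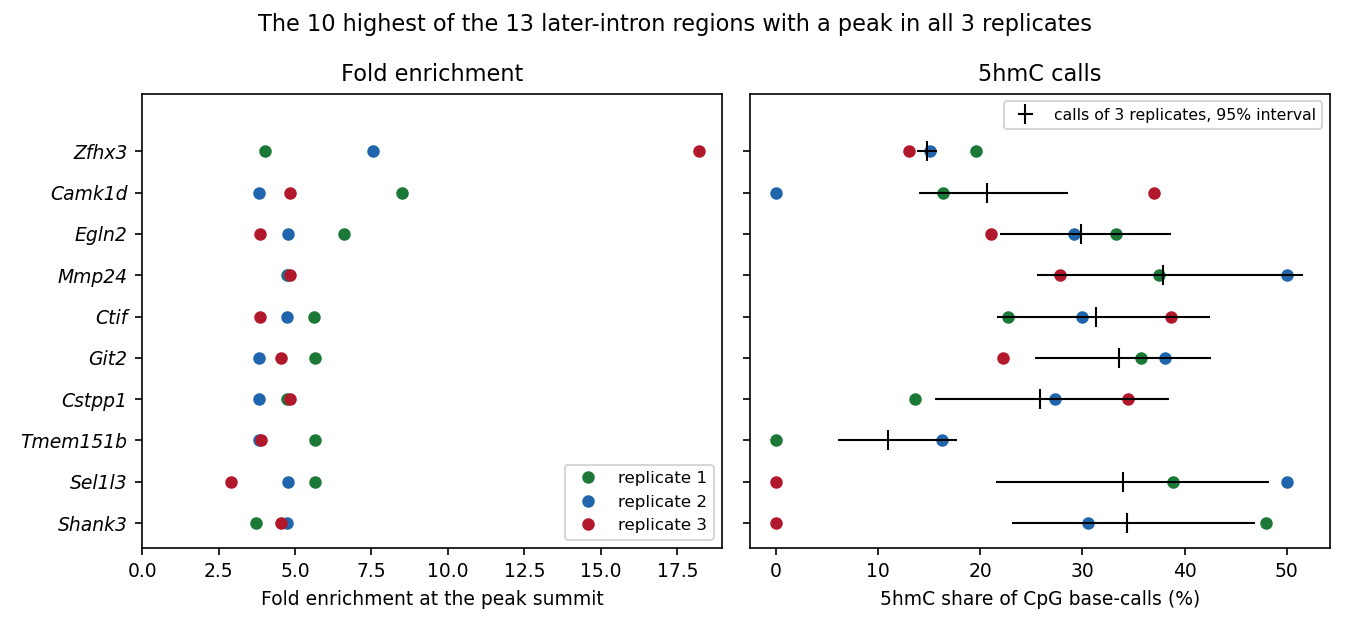
Fold enrichment at the summit (left) and share of 5hmC among CpG base-calls in percent (right) for the 10 regions named, by replicate. Black marks give the calls of all replicates with their exact 95% interval. Folds lay between 2.90 and 8.50 except in Zfhx3, where replicate 3 reached 18.2, and in Camk1d the 5hmC share ran from 0% in replicate 2 to 37.0% in replicate 3.

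Among the 229 regions in 2 replicates, the highest mean fold with at least 10 calls was in intron 36 of Trrap, a scaffold subunit of histone acetyltransferase complexes, with 6.47 in replicate 2 and 10.4 in replicate 3 and 15.9% of 5hmC in 680 calls. Next came introns of Tpcn1, an endolysosomal cation channel, with 5.92 and 7.06 in replicates 1 and 2, and of Mtcl1, a microtubule crosslinking protein, with 5.08 and 7.66. Their 5hmC shares were 34.3% of 70 calls and 42.7% of 82. In intron 13 of Pcsk6, a proprotein convertase, 48.8% of 84 calls were 5hmC. The share was 57.6% of 33 calls in replicate 2, 42.9% of 42 in replicate 3 and only 4 of 9 calls in replicate 1. Cacna1a, the pore subunit of the P/Q-type calcium channel of cerebellar neurons, had folds of 2.87 and 7.74 in intron 20 and 39.6% of 5hmC in 48 calls. Setd7, Nphp4 and Sipa1l1 had 17.4%, 16.3% and 0% of 5hmC, the last in only 13 calls, which allow up to 24.7% (exact 95% interval). Of these 8 regions 4 reached into an exon, with 129 exon bases in Trrap, 206 in Nphp4, 69 in Setd7 and 85 in Cacna1a.

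Of the 353 regions with 30 or more calls, the 5 with the highest and the 5 with the lowest share of 5hmC were taken as a description of the range. The highest was in intron 5 of Nlgn1, a postsynaptic adhesion molecule, 218076 bp from the nearest exon. There 23 of 35 calls were 5hmC (65.7%, exact 95% interval 47.8% to 80.9%). By replicate 5hmC was 83.3% of 12 calls, 52.9% of 17 and 66.7% of 6, and only replicate 2 had a peak. Intron 71 of Hspg2, which encodes perlecan of the basement membrane, had the same count, with a peak in replicate 1 only. Intron 2 of Macroh2a1, a histone H2A variant, had 26 of 42 (61.9%). Snd1 and Ttll11 had 60.5% and 60.0%. In these regions each replicate with calls had 5hmC. Those of Hspg2 and Snd1 reached into an exon, with 105 and 306 exon bases.

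At the low end intron 4 of Chl1, a cell adhesion molecule, had 4.65% of 5hmC and 89.5% of 5mC in 86 calls, with 6.56%, 0% and 0% of 5hmC in the 3 replicates. St8sia5, a sialyltransferase, had 4.94% of 5hmC and 13.6% of 5mC in 81 calls, but the replicates differed, with 1 call of 5mC among 62 in replicate 1 and 10 among 19 in replicate 2. Ttc28, Cdc42bpb and Ssbp3 had 6.45%, 7.14% and 8.33% of 5hmC with 41.9% to 61.1% of 5mC. All 31 calls of Ttc28 were of replicate 3. The regions of St8sia5 and Cdc42bpb reached into an exon, with 247 and 121 exon bases.

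The regions with a single host gene fell in 1917 genes, 11.8% of the 16239 protein-coding genes with eligible later-intron sequence, and in 42.4% of the genes of 100 kb or more. A single region was found in 1118 genes, while 221 genes with 5 or more held 41.5% of all regions. The 10 genes with the most held 224 regions, 5.04% of the total, in 0.706% of the eligible sequence. As these genes were chosen by their counts, the counts are a description.

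Among these genes were several transcription factors. Tcf4, a basic helix-loop-helix factor, had 31 regions in 298 kb of eligible sequence, with 0, 20 and 16 peaks in replicates 1, 2 and 3, spread over 5 introns from 5.55% to 96.8% of the gene. Camta1, a calmodulin-binding transcription activator, had 28 regions in 734 kb, with 3, 16 and 12 peaks. Zfp521, a zinc finger factor, had 21 and Foxn3, a forkhead factor, 20. The 5hmC share of their calls was 39.3% in Tcf4, 29.4% in Camta1, 47.1% in Zfp521 and 39.3% in Foxn3.

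Of the signalling and neuronal genes, Tiam1, an exchange factor of the GTPase Rac, had 22 regions in 151 kb, 14.6 per 100 kb, with 3, 12 and 11 peaks in the replicates and 37.2% of 5hmC in 436 calls. Cacna1c, the pore subunit of an L-type calcium channel, had 22 in 444 kb and Rbfox3, a neuronal splicing factor also known as NeuN, 20 in 305 kb. Nav2, a neuron navigator, had 19, a count shared with Prkce, which the 10 leave out. Lhfpl6, a tetraspan membrane protein, had 21 regions in 2 introns, with 43.5% of 5hmC. Wwox, an oxidoreductase gene of 913 kb, had 20 with 27.5% of 5hmC and 55.7% of 5mC, the highest share of 5mC of the 10. In all 10 genes both replicates with purified antibody had peaks. These replicates held most later-intron peaks, 2853 and 1717 against 168 in replicate 1. With genes chosen by their counts, this is no separate support.

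Per 100 kb of eligible sequence the densest genes with at least 5 regions were shorter. Gse1 had 7 regions in 18.96 kb, 36.9 per 100 kb, and Smad7, an inhibitory SMAD of TGF-beta signalling, 6 in 22.6 kb, 26.5 per 100 kb. Pard6g, a cell polarity protein, and Dtx1, a ubiquitin ligase of the Notch pathway, had 20.6 and 19.3 per 100 kb. Afap1l2, Capzb, Gramd4 and Ak4 had 16.8 to 19.2, and Capzb encodes the beta subunit of the actin capping protein. The mean over all genes was 7.79 regions per Mb.

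**Figure D5:**
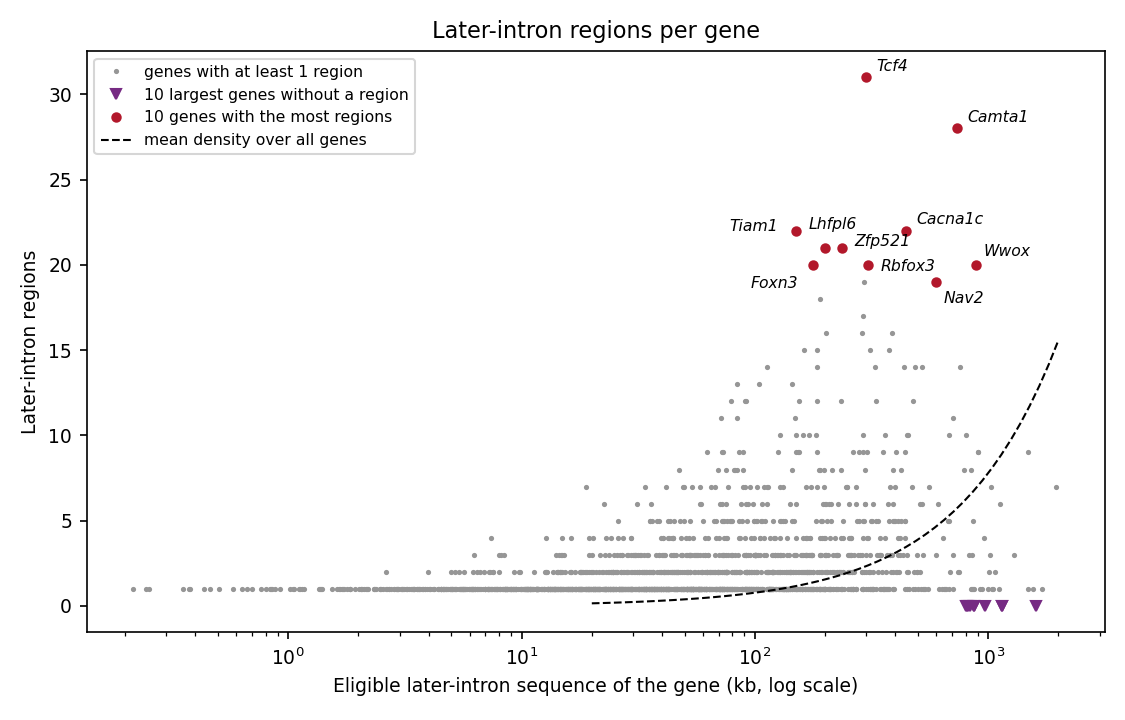
Later-intron regions per gene against eligible later-intron sequence (kb, log scale). Grey points are genes with at least 1 region, red points the 10 with the most, triangles the 10 with the most eligible sequence among genes without a region, and the dashed line the mean density of 7.79 per Mb. Tcf4 had 31 regions in 298 kb, while Cntnap2 had none in 1595 kb.

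Lists of cell type and neuronal genes were set beside this background. Of 23 granule cell genes 13 (56.5%) had a region, against 11.8% over all genes, and 7 of the 8 of 100 kb or more, against 42.4%. The list held 36.5 regions per Mb against 7.79 over all genes, and by replicate 1.39, 23.6 and 14.3 peaks per Mb against 0.291, 4.95 and 2.98. Tiam1 and Rbfox3 carried 42 of its 79 regions, and without them the density was 21.6 per Mb. Nfia, Nfib and Nfix, nuclear factor I transcription factors, had 6, 4 and 4 regions, with 49.0%, 41.3% and 7.14% of 5hmC, Reln, the secreted glycoprotein reelin, had 6 and Grin2c, an NMDA receptor subunit, 4 in 7.39 kb. Gabra6, Slc17a7, Cbln1 and Pax6 had none.

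Purkinje cell genes had fewer. Of 19 genes 5 (26.3%) had a region, against 11.8% over all genes, 4 of the 7 of 100 kb or more, against 42.4%, and the density was 4.66 per Mb, or 2.96 without the 2 leading genes, with 0.333, 2.66 and 1.67 peaks per Mb in replicates 1, 2 and 3. Dab1, the adaptor of reelin signalling, had 4, and Itpr1, the inositol trisphosphate receptor, had 3. Their calls were few, with 1 of 9 (11.1%) and 22.2% of 36 in 5hmC. None of the 13 interneuron genes, Gad1 and Gad2 among them, had a region in 0.743 Mb, and a count of 0 allows up to 4.04 per Mb.

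Astroglial genes had a region in 3 of 14 (21.4%), with 4 in Slc4a4, a bicarbonate transporter. Oligodendrocyte genes had a region in 2 of 13 (15.4%), close to the 11.8% over all genes, with 2 in Mbp, myelin basic protein. The densities were 10.6 and 9.44 per Mb, from 6 and 3 regions, and without the 2 leading genes of each list they were 4.18 and 0. DNA of a whole tissue does not tie a region to a cell type, and these lists mark genes and not cells.

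Of 35 long adhesion and synapse genes 25 had a region, all of them among the 34 of 100 kb or more, where 42.4% of all genes had one. The median length of the list was 906.2 kb, and its density of 4.69 per Mb stood beside 4.16 in all genes of 500 kb or more and 7.79 over all genes. Auts2, a neurodevelopmental regulator, and Csmd2, a transmembrane protein with CUB and sushi domains, had 14 each, and Nrxn3, a presynaptic neurexin, 9 in 1475 kb. Cntnap2, a neurexin-related adhesion molecule, had the most eligible sequence of any gene without a region, 1595 kb, where a count of 0 allows 3 regions. Agbl4, Cntn5 and Immp2l, also without a region, had 1142, 970.2 and 873 kb. In all, 72 of 169 genes of 500 kb or more had no region, so that most of them had at least 1. Over all genes 11.8% had a region, and of those of 100 kb or more 42.4%.

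Among 25 enzymes and readers of DNA methylation, 3 (12%) had a region, a share at the 11.8% of all genes. Their density was 14.4 per Mb against 7.79 over all genes, and 2.73 without the 2 leading genes, Zbtb38 and Dnmt3a. Zbtb38, a methyl-CpG-binding zinc finger protein, had 7 in 49.6 kb with 40.8% of 5hmC in 98 calls, Dnmt3a, a de novo methyltransferase, 3, and Tet3, a TET enzyme, 2. Tet1, Tet2, Dnmt1 and Uhrf1 had none. Of 33 genes typical of liver, muscle, lymphocytes or epithelium 3 (9.09%) had a region, near the 11.8% of all genes, and 2 of the 10 of 100 kb or more, against 42.4%. Their density was 2.36 per Mb, or 0.517 without the 2 leading genes. The genes with a region were Neb, the giant muscle protein nebulin, with 3, Hnf4a, a hepatocyte transcription factor, with 1, and Skap1, a lymphocyte adaptor, with 1.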

How the data were processed

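Nanopore hMeDIP-seq of cerebellum was read from the deposited peak lists and CpG tables of 3 replicates. Per the study's methods, the authors base-called reads with Dorado, mapped them with minimap2 to mm39 (GRCm39), called peaks per replicate with MACS2 against untreated DNA and counted modifications with modkit; the submitters' processing notes also name SAMtools. The deposited peak values were fold enrichment (a ratio over background), −log10 p-values and q-values and a display score, and the deposited CpG values were counts of calls and their percent. Removal of blacklisted peaks is stated and was not checked here. Repeats were not annotated. The 67 peaks outside chromosomes 1 to 19 were left out.

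Genes were those of GENCODE M39, and 500 bp windows whose midpoint met the same rule were the background. The 47 regions in later introns of more than 1 gene were left out of positions and gene counts. Shares were tested by exact binomial tests with Benjamini-Hochberg adjustment over 4 tests, and replicate differences by exact sign-flip permutation (Python 3.11.15, scipy 1.17.1). Scripts were tested on simulated data. The 5hmC shares rest on 2805, 25123 and 17148 calls in replicates 1, 2 and 3. The counting interval of replicate 2 lay above those of replicates 1 and 3, which overlapped each other. Regions, genes and lists were chosen with earlier results of these data known. Named were up to 10 regions in 3 replicates and 8 in 2 (at least 10 calls) by mean fold, the 5 highest and 5 lowest in 5hmC of those with 30 calls, the 10 genes with most regions, the 8 densest with at least 5, and 3 of each list. Some genes that this rule names are not reported here. Other genes of a list are named as examples and were chosen after their values were seen. Alternatives covered peak thresholds, merging, background, gene models, thresholds of length and distance, coverage, weighting and left-out replicates.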

Additional observations from a re-analysis of the deposited data

How the results depend on the processing

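Of 60 alternatives, 42 were classed as the same as the main setting. In 8 the direction reversed, in 5 a ratio kept its direction and fell under a p of 0.05, and in 5 a value without a test moved. Shares of 5hmC and density ratios had no test, and the sign-flip test could not give a p under 0.25. These could not cross a threshold. The excess of later-intron regions over windows held under all that were run, with ratios of 1.41 to 1.42 when a replicate was left out. The ratio for the part of the gene beyond 66.67% was 1.11 with a fold of at least 4, a filter that gave more weight to replicate 1. It was 1.01 to 1.06 with a replicate left out (1.06 without replicate 2). Against windows with at least 10 CpG it was 0.928, against CpG sites 0.999 and along the later introns 0.948. The ratio for genes of 100 kb or more was 1.27 against windows with at least 10 CpG and 1.07 against CpG sites, 0.908 at 200 kb, and 1.01 to 1.03 with a replicate left out. The ratio within 1 kb of an exon was 0.999 at a q-value of at most 0.01, 0.635 against windows with at least 10 CpG, 0.912 against CpG sites, 1.21 at 500 bp, and 0.998 to 1.02 with a replicate left out (0.998 without replicate 2). The 5hmC share was 24.4% at CpG sites with at least 3 calls, 15.7% with at least 5, 32.5% without regions of many calls and 33.3% at sites outside own peaks, and 27.9% to 30.8% with a replicate left out. The difference from first introns stayed negative, from -8.08 to -6.95 with a replicate left out. With regions of many calls kept it was -11.9 at 3 calls and -18.5 at 5, and without them -4.32. It was -5.66 over all CpG sites of merged regions, -4.57 as the mean of single CpG sites and -3.78 outside own peaks. The density ratio of long to short genes was 1.31 per 1000 CpG, and 1.10 to 1.14 with a replicate left out. The cause of these changes was not tested. Sites outside own peaks, positions without regions of many calls and lists without their 2 leading genes were chosen after seeing the data. The samples form a single group, so that no replicate block between groups could be fitted, and classes of region were compared within each library. Depth limits the shares of single regions, which had a median of 9 calls.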
